A study of Mus musculus with 14 samples.

Results

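The genes described here encode the machinery of class I antigen presentation, measured in mouse fibroblasts that lack Ptdsr (now Jmjd6), a gene first described as a phosphatidylserine receptor, against wild-type fibroblasts. They were chosen by gene symbol as H2-K1, H2-D1, B2m, Tap1, Tap2, Tapbp, Psmb8, Psmb9, Psme1 and Psme2. Of these 10 symbols, 8 had a probe among the 20355 probes of the array, with 1 probe each, and H2-D1 and Tap2 had none under these symbols. The symbols were picked with the knockout to wild-type ratios of these arrays in view. Those ratios are therefore given as a description. Counts of these probes called in the fits over all probes are given beside those of all probes, and nothing is read from them. The data came from 14 two-colour cDNA arrays. Each array set Ptdsr-/- fibroblast RNA in 1 dye against wild-type fibroblast RNA in the other, and 7 arrays carried the knockout in Cy5, the other 7 in Cy3. The sources used here do not state mouse strain, age, passage or how the allele was deleted. The series design names 2 fibroblast cultures without saying which array came from which. The 14 arrays are therefore not 14 independent cultures. P-values measured the spread between arrays, part of which may be technical, and not that between cultures. The wild-type RNA served as 1 control whose own spread was not measured.

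Class I molecules display peptides from proteins made inside the cell to cytotoxic T cells. The proteasome cuts proteins into peptides, and its interferon-inducible form exchanges the catalytic subunits for others, among them those encoded by Psmb8 and Psmb9. Psme1 and Psme2 encode the subunits of an activator that caps the proteasome. The Tap1 and Tap2 proteins carry the peptides into the endoplasmic reticulum, where tapasin, encoded by Tapbp, bridges the transporter to a heavy chain such as that of H2-K1 bound to beta-2 microglobulin, encoded by B2m. Fibroblasts carry class I molecules on their surface, and interferons raise many of these genes.

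Read as knockout over wild type, the likely direction, H2-K1 had the lowest ratios among these genes, at a mean log2 ratio (knockout over wild type) of -1.50 ± 0.55 (SD, n = 14), or 2.83-fold lower in the knockout. B2m and Psmb8 followed with similar means of -0.74 ± 0.44 (SD, n = 14) and -0.73 ± 0.34 (SD, n = 14), and Tap1 with -0.50 ± 0.35 (SD, n = 14). Psme1 and Psme2 lay closer to 0, and Psmb9 and Tapbp had wide spreads around means above 0. Of the 8 probes, 6 had a mean below 0, and 88 of their 103 measured values were below 0.

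**Figure D1:**
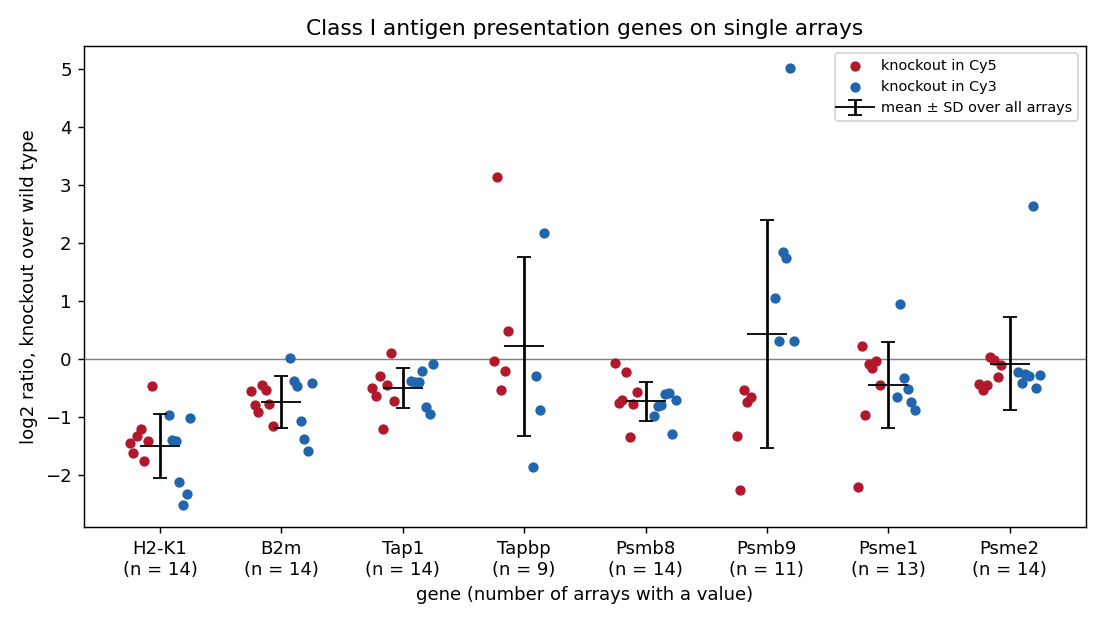
The plot shows the log2 ratio of knockout over wild type (vertical axis) of each class I gene on each array, in red with the knockout in Cy5 and in blue with it in Cy3, with the mean and SD over all arrays in black. H2-K1 lies between -2.52 and -0.46, while Psmb9 spans -2.25 to 5.02 with all red points below 0 and all blue points above it.

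The promoters of H2-K1, B2m, Tap1 and Psmb8 are shown. These 4 had the lowest means among the 5 genes with a value on every array. Each is the run of 250 bases before the first RefSeq start in build GRCm38.p6, 5′ to 3′ on the strand of the gene. Capitals mark matches on either strand to the interferon regulatory factor core AANNGAAA, the kappa-B site GGGANTCCC, the STAT site TTCNNNGAA, the CRE half-site TGACG and the CCAAT box CCAAT. The windows are chr17:34000348-34000597 (minus strand) for H2-K1, chr2:122147437-122147686 (plus strand) for B2m, chr17:34187306-34187555 (plus strand) for Tap1 and chr17:34197945-34198194 (plus strand) for Psmb8.
H2-K1: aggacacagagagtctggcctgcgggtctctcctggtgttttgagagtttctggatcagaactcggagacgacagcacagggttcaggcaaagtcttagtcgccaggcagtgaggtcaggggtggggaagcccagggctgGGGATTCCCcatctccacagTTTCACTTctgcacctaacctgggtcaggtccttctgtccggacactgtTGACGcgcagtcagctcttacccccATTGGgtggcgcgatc
B2m: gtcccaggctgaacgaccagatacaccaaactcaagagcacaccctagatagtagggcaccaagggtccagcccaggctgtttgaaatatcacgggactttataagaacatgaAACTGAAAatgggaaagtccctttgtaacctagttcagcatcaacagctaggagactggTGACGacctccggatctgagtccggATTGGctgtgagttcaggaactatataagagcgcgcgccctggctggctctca
Tap1: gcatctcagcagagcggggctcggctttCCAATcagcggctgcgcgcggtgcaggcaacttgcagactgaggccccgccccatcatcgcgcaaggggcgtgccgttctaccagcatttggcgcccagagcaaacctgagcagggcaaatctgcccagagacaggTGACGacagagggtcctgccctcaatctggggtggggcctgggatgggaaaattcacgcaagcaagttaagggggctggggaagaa
Psmb8: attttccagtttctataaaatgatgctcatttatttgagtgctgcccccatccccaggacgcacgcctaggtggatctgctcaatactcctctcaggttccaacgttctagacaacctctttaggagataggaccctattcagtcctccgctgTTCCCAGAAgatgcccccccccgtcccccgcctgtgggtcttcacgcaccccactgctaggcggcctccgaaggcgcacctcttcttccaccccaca

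The H2-K1 window held 4 of the 5 motifs. Its kappa-B match lay 110 to 102 bases before the start, a motif found in 0.636% of the 32851 windows of this length in the RefSeq table. Its interferon regulatory factor core lay 90 to 83 bases before the start. B2m shared the core, the half-site and the CCAAT box with H2-K1, in the same order along the strand. The first bases of the half-site and of the CCAAT box lay 25 bases apart in both genes. The core alone was present in 21.3% of all windows, the half-site in 17.8% and the CCAAT box in 33.8%. Tap1 held the half-site and the CCAAT box, and Psmb8 held the STAT site, which 7.02% of windows carried. Tap1 and Psmb9 start head to head 225 bases apart, so their windows share those bases and the same matches. Among the 8 genes, 2 had the core, 1 the kappa-B site, 1 the STAT site, 5 the half-site and 5 the CCAAT box, while Psme1 had none of the 5 motifs. No matches overlapped each other, and a match describes letters only.

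**Figure D2:**
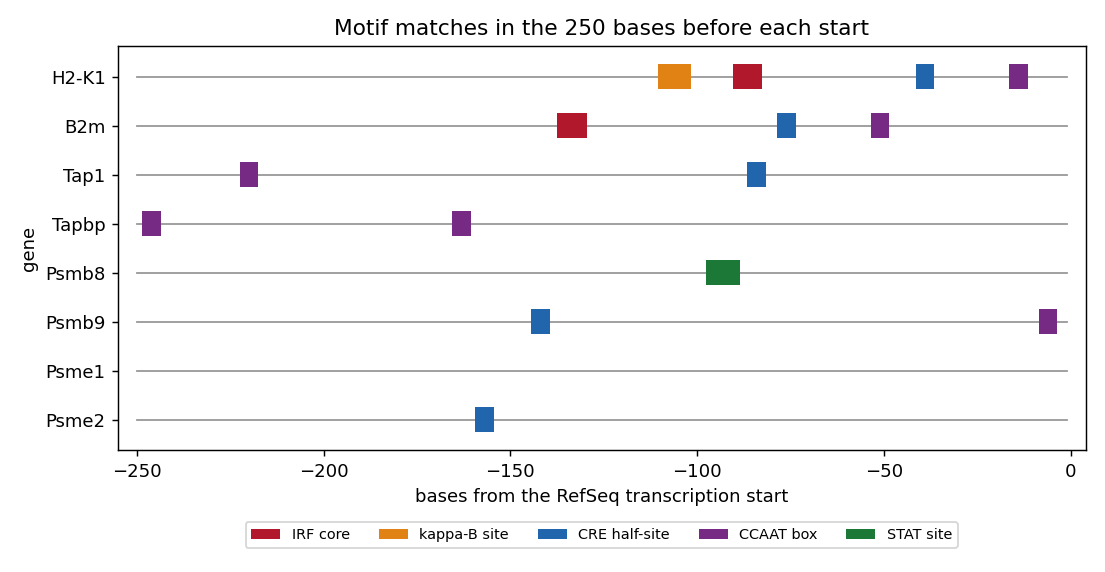
The map places each motif match (coloured boxes) by its distance in bases from the RefSeq start (horizontal axis) in the 250 bases before the start of each of the 8 genes. H2-K1 and B2m are the genes with an interferon regulatory factor core, 90 and 137 bases before the start at its far end.

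The labels do not state which way the ratios run, and knockout over wild type is the likely reading. Each array held 1 repeated extreme value, above 0 on the 7 arrays carrying the knockout in Cy5 and below 0 on the 7 carrying it in Cy3, as if swapped arrays had been turned before deposit to read knockout over wild type. Arrays of opposite dye, compared in pairs, left the question unsettled, since 25 of 49 pairs had a rank correlation across tested probes above 0 (median 0.00271). If the swapped arrays had not been turned, the H2-K1 mean would be 0.18 and those of B2m, Tap1 and Psmb8 would be 0.01, -0.03 and 0.09. Psmb9 would then have the lowest mean, at -1.43, with all 11 values below 0. Between 13165 and 19615 probes had a usable ratio on an array. The Jmjd6 probe, the check of the labels, had a mean of -0.51 ± 1.14 (SD, n = 14) and was below 0 on 12 of 14 arrays, with replicate 2 at 2.92. The other Jmjd6 probe was measured on 5 arrays only, from -1.65 to 1.09, and 4 of these values were above 0. The sources used here do not state whether either probe lies in the deleted part. Ratios carry no level, so the fibroblast label could not be checked against marker levels.

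H2-K1 encodes a classical class I heavy chain, the polymorphic subunit that holds the peptide. Its log2 ratios ran from -2.52 (replicate 11) through a median of -1.42 to -0.46 (replicate 13). All 14 arrays lay below 0, in both dye orientations. With the knockout in Cy5 the 7 values were -1.45, -1.62, -1.32, -1.21, -1.76, -1.42 and -0.46 (replicates 1, 3, 4, 7, 8, 9 and 13), a mean of -1.32 ± 0.42 (SD, n = 7). In Cy3 they were -0.96, -1.39, -1.42, -2.12, -2.52, -2.33 and -1.02 (replicates 2, 5, 6, 10, 11, 12 and 14), a mean of -1.68 ± 0.64 (SD, n = 7). The orientations overlapped, and the 3 lowest values were those of replicates 10, 11 and 12. Of all 18503 tested probes, 0.0162% had a lower mean. Cross-hybridisation of the cDNA probe with transcripts of other class I heavy chains was not measured.

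B2m encodes the invariant light chain of class I molecules. Its ratios ran from -1.58 (replicate 12) through a median of -0.66 to 0.02 (replicate 2), and 13 of 14 arrays lay below 0. The mean was 1.67-fold lower in the knockout. It was almost equal in the orientations, at -0.74 ± 0.25 (SD, n = 7) in Cy5 and -0.75 ± 0.59 (SD, n = 7) in Cy3. Replicates 10, 11 and 12 again held low values, at -1.06, -1.37 and -1.58, with replicate 13 at -1.15 beside them. H2-K1 was below B2m on 13 of 14 arrays, by 0.76 ± 0.47 log2 units on average (H2-K1 minus B2m: -0.76, SD 0.47, n = 14), with replicate 13 the exception.

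Tap1 encodes 1 chain of the peptide transporter of the endoplasmic reticulum. Its log2 ratios ran from -1.21 (replicate 7) through a median of -0.42 to 0.10 (replicate 9). The remaining 13 arrays lay below 0, and the mean was 1.41-fold lower in the knockout. Means of -0.53 ± 0.40 (SD, n = 7) in Cy5 and -0.46 ± 0.31 (SD, n = 7) in Cy3 lay close together, and the orientations overlapped.

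Tapbp, the gene of the loading chaperone tapasin, had values on 9 arrays and was not tested. They ran from -1.86 (replicate 5) through a median of -0.21 to 3.14 (replicate 4), and 6 of the 9 lay below 0. The mean of 0.22 ± 1.54 (SD, n = 9) became -0.14 without replicate 4. Of these 9 values, 4 equalled, to within 0.0011 log2 units, the ratio of 2 whole numbers no larger than 10. Such ratios made up 19.2% of the values of all tested probes.

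Psmb8 encodes the chymotrypsin-like catalytic subunit of the immunoproteasome. Its log2 ratios ran from -1.35 (replicate 8) through a median of -0.73 to -0.07 (replicate 1). All 14 lay below 0, and the mean was 1.66-fold lower in the knockout. The Cy5 arrays had a mean of -0.63 ± 0.42 (SD, n = 7), and the Cy3 arrays one of -0.82 ± 0.25 (SD, n = 7). Its SD over arrays was among the smaller ones, as 4.39% of tested probes had a smaller SD, against 21.1% for H2-K1.

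Psmb9, the gene of another catalytic subunit of the immunoproteasome, went different ways in the orientations. In Cy5 its 5 values were -1.32, -2.25, -0.54, -0.74 and -0.65 (replicates 3, 7, 8, 9 and 13). In Cy3 its 6 values were 1.05, 0.31, 1.84, 1.74, 5.02 and 0.31 (replicates 2, 5, 10, 11, 12 and 14). The orientations did not overlap, which held for 1 of the 7 tested class I probes and for 0.676% of all tested probes. The mean over both was 0.43 ± 1.97 (SD, n = 11) and became -0.03 without replicate 12. Read as deposited, Psmb9 was thus split by dye, while Tap1, which starts 225 bases away, had a mean below 0 in both orientations. Of tested probes, 97.3% had a smaller SD than Psmb9, against 4.85% for Tap1. Of the 11 Psmb9 values, 3 were whole-number ratios.

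Psme1 encodes the alpha subunit of the interferon-inducible proteasome activator. It had 13 values, from -2.21 (replicate 1) through a median of -0.45 to 0.95 (replicate 6), with 11 below 0. Its mean was -0.45 ± 0.74 (SD, n = 13), or -0.30 without replicate 1 and -0.57 without replicate 6. Psme2 encodes the beta subunit and had 12 of 14 values below 0, the lowest at -0.54 (replicate 3) and the median at -0.29. A single value of 2.64 (replicate 11) brought its mean to -0.08 ± 0.80 (SD, n = 14), and without that array the mean was -0.29. The activator subunits thus differed in mean by less than the spread of their difference between arrays (Psme1 minus Psme2: -0.38, SD 1.09, n = 13).

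**Figure D3:**
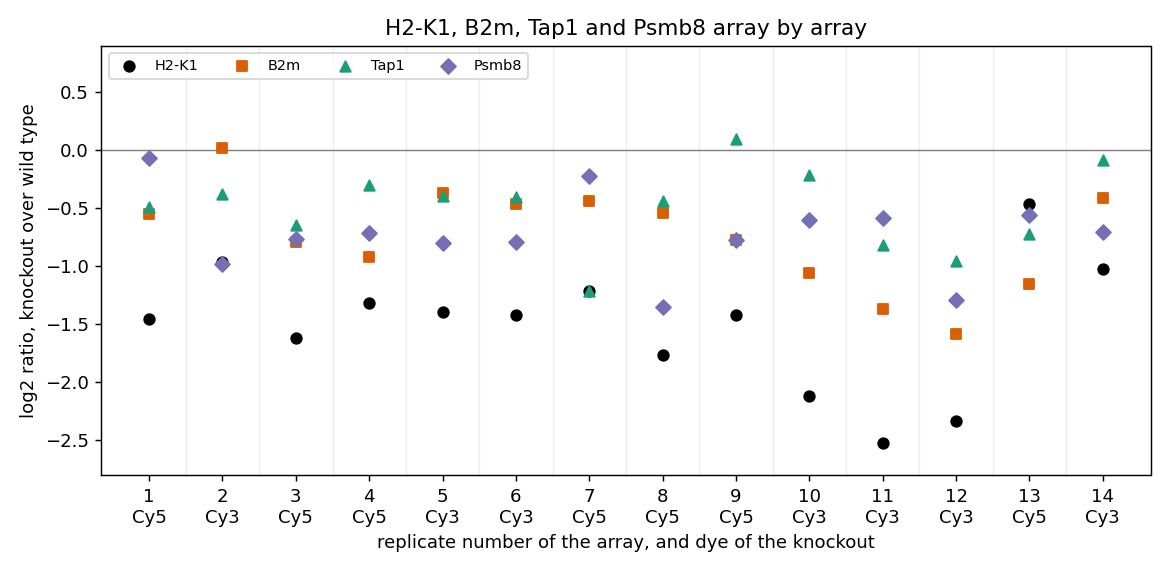
The plot gives the log2 ratio of knockout over wild type (vertical axis) of H2-K1, B2m, Tap1 and Psmb8 on each array, by replicate number and dye of the knockout (horizontal axis). All 4 genes lie below 0 on 12 of 14 arrays, with B2m at 0.02 on replicate 2 and Tap1 at 0.10 on replicate 9 the exceptions.

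Within arrays, H2-K1 usually stood at the low end. It was the lowest measured class I gene on 9 of 14 arrays, and it lay below Psmb8 on 12 of 14 and below Tap1 on 13 of 14. B2m and Psmb8 did not separate, with B2m below Psmb8 on 9 of 14 arrays (B2m minus Psmb8: -0.02, SD 0.53). B2m was below Tap1 on 11 of 14 arrays (-0.25, SD 0.47), and Psmb8 was below Tap1 on 10 of 14 (-0.23, SD 0.52). Both of these differences were smaller than their spread between arrays. Ratios say nothing of which gene had the higher level.

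The median over the class I genes was below 0 on every array, from -0.91 (replicate 12) to -0.30 (replicate 2). Over all arrays, the median of the 8 gene means was -0.47, and of the 7 tested -0.50, against 0.007 for all tested probes. In bulk RNA, a lower ratio from fewer cells of a type cannot be told apart from less RNA per cell. By limma with Benjamini-Hochberg adjustment over 18503 probes, 1 of the 7 tested class I probes, H2-K1, was called lower at an adjusted p below 0.05 and 0 higher, where 0.0324% of all tested probes were called lower. Psmb8 was also called without replicate 1, where 7 of all 17857 tested probes were called. Robust and trended eBayes called 0 of all 18503 probes, so no class I probe either. With the swapped arrays turned, 1 of all 18503 probes was called, and it was not a class I probe. Because this contrast was in view when the genes were picked, nothing is read from these counts or from the medians. Values below 0 on every array were found for H2-K1 and Psmb8, and for 0.261% of the 6134 probes with 14 values.

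The dye term, the difference between the dye orientations, did not enter the choice of genes and was tested. In limma, 0 of the 7 tested class I probes had a dye term at an adjusted p below 0.05, where 0.0054% of all tested probes had one. Psmb9 had the largest difference, -2.81 ± 0.76 (Cy5 minus Cy3, SE) with an adjusted p of 0.461. It was the 1 class I probe with an unadjusted p below 0.05 (p = 0.00289 from limma), as were 7.66% of all tested probes. For H2-K1 the difference was 0.36 ± 0.32 (SE), smaller than its mean ratio, with an adjusted p of 0.815 from limma. B2m differed by 0.01 ± 0.28, Tap1 by -0.07 ± 0.25 and Psmb8 by 0.19 ± 0.25 (SE), with adjusted p-values from limma of 0.995, 0.968 and 0.877. Psme1 differed by -0.17 ± 0.42 and Psme2 by -0.36 ± 0.43 (SE), with adjusted p-values from limma of 0.951 and 0.866.

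**Figure D4:**
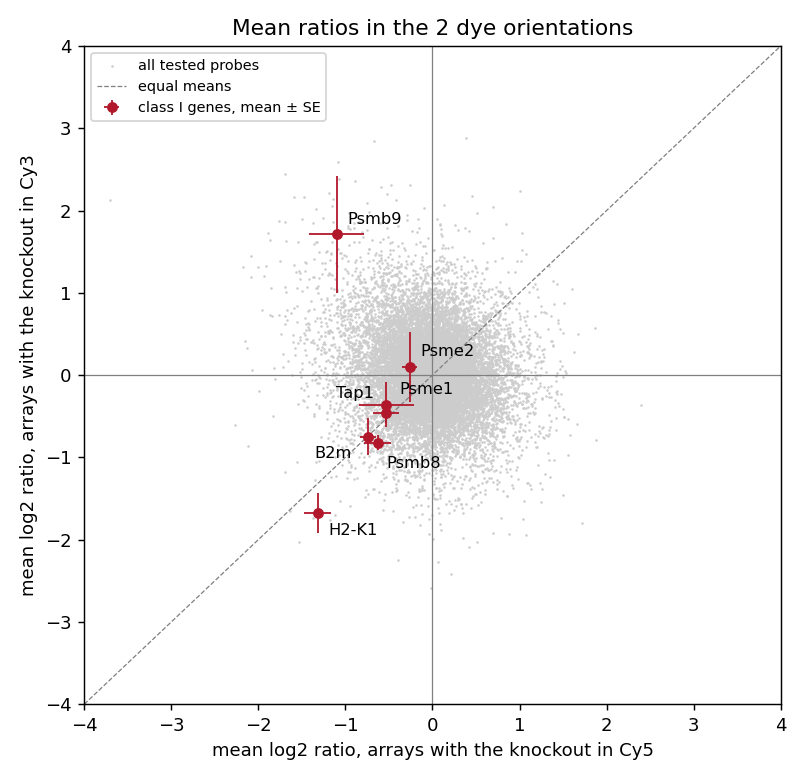
Each point is a probe, with its mean log2 ratio on arrays with the knockout in Cy5 (horizontal axis) and in Cy3 (vertical axis), grey for all tested probes and red with SE bars for the 7 tested class I genes. H2-K1 lies at -1.32 and -1.68, B2m at -0.74 and -0.75, and Psmb9 stands apart at -1.10 and 1.71.

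Arrays differed along the replicate numbers, which are no labelled batches. H2-K1 had a mean of -1.36 over replicates 1 to 6, -1.89 over replicates 7 to 12 and -0.74 over the 2 arrays 13 and 14. The B2m means were -0.51, -0.96 and -0.78, those of Tap1 -0.44, -0.59 and -0.40, and those of Psmb8 -0.68, -0.80 and -0.63. All 4 genes had means below 0 in each range. What set the ranges apart was not tested.

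Other genes of the pathway were taken from 7 lists, in which 73 of 113 symbols had a tested probe, 91 probes in all. These lists were chosen with earlier results of these data known. By limma 0 of the 91 were called lower and 0 higher, against 0.0324% of all tested probes lower. None was called in any alternative fit listed under the processing either. At an unadjusted p below 0.05 the lists held 3 lower probes and 0 higher ones, where 2.76% of all tested probes were lower and 2.3% higher. Those 3 were the Fcgrt probe, 1 of the Ifnar2 probes and the Stat2 probe.

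Among other class I heavy chains, 4 of 19 symbols were tested, with a median mean ratio of -0.11. Fcgrt, the heavy chain of the neonatal Fc receptor and a partner of B2m, had a mean of -0.43 ± 0.31 (SD, n = 14) and was below 0 on 13 of 14 arrays, without passing (adjusted p = 0.849, limma). The nonclassical chain gene H2-Q10 lay at -0.25 ± 0.27 (SD, n = 11). H2-M3, a nonclassical chain that presents formylated peptides, lay at -1.26 in Cy5 and 1.91 in Cy3. Its dye term did not pass (adjusted p = 0.453, limma). H2-M3 ranged from -3.34 to 3.34 between arrays, and 99.0% of tested probes had a smaller SD.

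Loading and trimming factors had 16 tested probes with a median of 0.13. The lectin chaperone gene Canx lay at 0.20 ± 0.36 (SD, n = 14), 0.25 ± 0.58 (SD, n = 12) and -0.12 ± 1.17 (SD, n = 12) on its 3 probes. The chaperone gene Hspa5 lay at 0.17 ± 0.61 (SD, n = 13). The peptidase gene Nrd1 lay at 0.19 ± 0.78 (SD, n = 14) on 1 probe and 0.28 ± 2.42 (SD, n = 12) on the other. None of these means exceeded its spread between arrays.

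The proteasome outside the class I genes had medians near that of all probes. Its 13 probes for constitutive core subunits had a median of -0.04, and 8 lay below 0. In that list Psmb2 lay at -0.66 ± 1.48 (SD, n = 11), Psmb3 at -0.29 ± 0.86 (SD, n = 12) and Psmb6 at -0.29 ± 0.85 (SD, n = 13) and -0.01 ± 0.34 (SD, n = 14). The regulatory cap had 18 probes and a median of -0.09. Its gene with the smallest p, Psmc5, lay at -0.57 ± 0.94 (SD, n = 12) on 1 probe and 0.04 ± 0.77 (SD, n = 11) on another. Psmd2 lay at -0.34 ± 0.73 (SD, n = 13) and Psmd5 at -0.28 ± 0.50 and -0.12 ± 0.45 (SD, n = 13 each). The 8 probes of assembly factors, other activators and the remaining inducible subunit, Psmb10, had a median of -0.06. Psmb10 had the highest mean of that list, at 0.15. Psmg1 lay at -0.21 ± 0.57 (SD, n = 14), Psme4 at 0.13 ± 0.45 (SD, n = 14) and Pomp at -0.08 ± 0.32 (SD, n = 13).

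Class II presentation genes, which serve helper T cells and are mostly confined to professional antigen-presenting cells, had 10 tested probes with a median of 0.01. The invariant chain gene Cd74 lay at -0.38 ± 1.01 (SD, n = 13), 0.16 ± 0.67 (SD, n = 11) and 0.03 ± 1.45 (SD, n = 11) on its 3 probes. H2-Ab1 lay at -0.30 ± 1.19 (SD, n = 11) and H2-Eb1 at 0.24 ± 1.60 (SD, n = 12). The H2-Eb1 means were -0.89 in Cy5 and 1.37 in Cy3. Its orientations overlapped, and its dye term did not pass (adjusted p = 0.461, limma).

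Regulators of class I transcription had 22 tested probes and a median of -0.06. Ifnar2 encodes a chain of the type I interferon receptor. Its probes lay at -0.41 ± 0.25 (SD, n = 13), -0.41 ± 1.18 (SD, n = 13) and 0.11 ± 0.77 (SD, n = 12), and the first had an adjusted p of 0.895 from limma. Stat2, a signal transducer of that receptor, lay at -0.89 ± 1.48 (SD, n = 14) with 11 of 14 arrays below 0 and replicate 2 at -5.50. Nfyb, a subunit of the factor that binds the CCAAT box, lay at -0.17 ± 0.24 (SD, n = 14) and 0.38 ± 1.38 (SD, n = 12) on its probes.

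**Figure D5:**
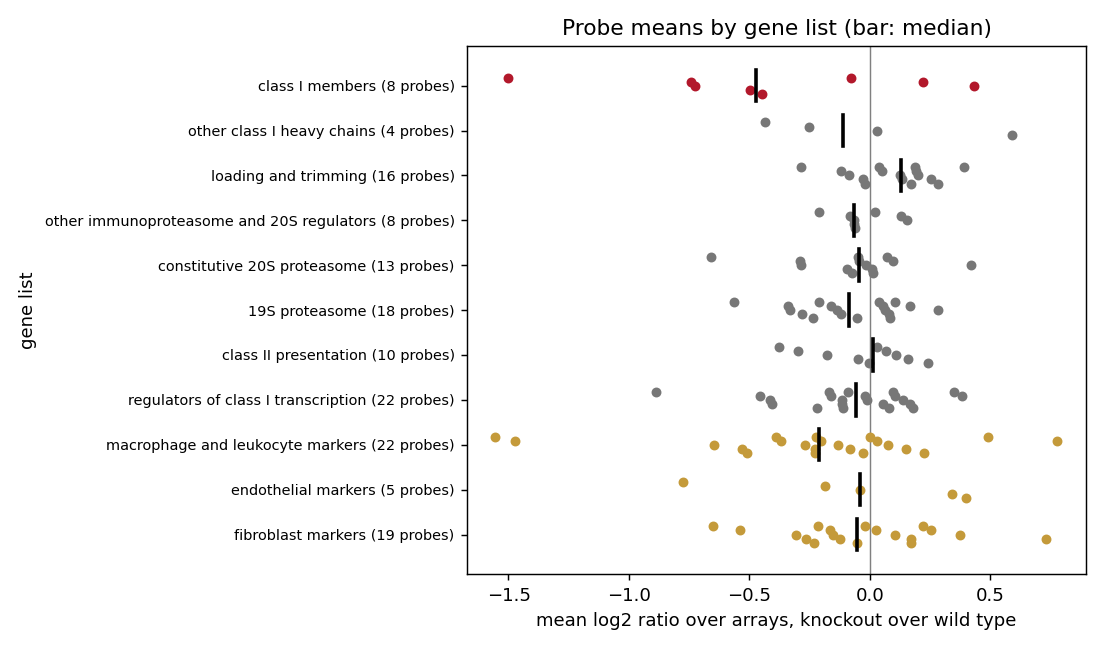
Each point is the mean log2 ratio of a probe over arrays (horizontal axis), by gene list (vertical axis), with the class I genes in red, other pathway lists in grey, marker lists in yellow and the median of each list as a black bar. The class I genes have a median of -0.47, and the other pathway lists have medians from -0.11 to 0.13. Because the class I genes were picked with these ratios in view, nothing is read from the difference.

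Macrophage and leukocyte markers were set beside the class I genes. This list was chosen with earlier results of these data known, so nothing is read from its counts of calls. Of 23 such symbols 16 were tested, with 22 probes, a median of -0.21 and 16 probes below 0. Probe means ran from -1.55 to 0.78. Coro1a lay at 0.78, 0.49 and -0.03 on its probes, Cybb at 0.23 and Lcp1 at 0.15 and -0.08. Aif1 lay at 0.08, Mrc1 at 0.03, Cd52 at -0.0 and C1qc at -0.13. Tyrobp lay at -0.65, Ptprc at -0.39, Laptm5 at -0.27, Fcer1g at -0.23 and C1qb at -0.20. The Fcgr3 probes lay at -0.37, -0.23 and -0.22. The per-array median of the list ran from -0.53 to 0.31 in Cy5 and from -0.40 to 0.02 in Cy3. By limma 1 of the 22 probes was called lower and 0 higher, against 0.0324% of all tested probes lower. It belonged to Lyz2, the macrophage lysozyme, at -1.47 ± 0.80 (SD, n = 12, adjusted p = 0.0454). The other Lyz2 probe lay at -1.55 ± 1.03 (SD, n = 14, adjusted p = 0.0595, limma). Mpeg1, of macrophages, lay at -0.53 ± 0.46 (SD, n = 14) and Cd68, of their lysosomes, at -0.51 ± 0.55 (SD, n = 13), neither past the test. At an unadjusted p below 0.05 these 4 probes were lower and 0 of the 22 higher, against 2.76% and 2.3% of all tested probes. Whether macrophages in the cultures had a part in the class I ratios was not tested.

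Fibroblast markers had 19 tested probes with a median of -0.05. The proteoglycan gene Dcn lay at -0.65 ± 0.72 (SD, n = 14), Thy1 at -0.54 ± 1.42 and -0.27 ± 0.73 (SD, n = 14 each), and the receptor gene Pdgfrb at 0.25 ± 0.55 (SD, n = 13). Endothelial markers had 5 tested probes with a median of -0.04. Eng lay at -0.78 ± 1.12 (SD, n = 11) and -0.04 ± 0.31 (SD, n = 14), Pecam1 at 0.34 ± 1.12 (SD, n = 12) and Cdh5 at 0.40 ± 1.66 (SD, n = 11). By limma 0 of these 24 probes were called, and 1 in each list was lower at an unadjusted p below 0.05, against 2.76% of all tested probes. Both lists were chosen with earlier results of these data known.

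The probes most like each of H2-K1, B2m and Psmb8 were ranked by the mean absolute difference in log2 ratio over at least 12 shared arrays, among 10259 probes with a gene symbol. Nearest to H2-K1 were a Lyz2 probe (0.36 log2 units over 12 arrays), the collagenase gene Mmp13 (0.43), the lipoprotein lipase gene Lpl (0.60), the other Lyz2 probe (0.62) and the interferon-inducible gene Ifi27 (0.63), the last 4 over 14 arrays. Psmb8 ranked as number 10 (0.79), B2m as number 17 (0.86) and Tap1 as number 58 (1.04), so the nearest probes to H2-K1 were not class I genes. Nearest to B2m were Zbtb22 (0.23), Mpeg1 (0.25), Ifi205 (0.27), Ifitm3 (0.28) and Cemip (0.29), over 13 or 14 arrays, with Tap1 as number 31 and Psmb8 as number 38 (0.42 each). Psmb8 had Ifi205 (0.23), Cd82 (0.27), Ifitm3 (0.36), Npc2 (0.37) and the tafazzin gene Taz (0.37) nearest, over 12 to 14 arrays. B2m was number 12 (0.42) and Tap1 number 55 (0.49) for Psmb8. H2-K1 itself was only number 3220 for B2m and number 2297 for Psmb8. Psme1 was number 277 for H2-K1, 1354 for B2m and 597 for Psmb8, and Psme2 number 1721, 1062 and 984. Psmb9 and Tapbp had too few arrays to be ranked. This measure favours probes with a like mean and a small spread, and all probes share the same arrays.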

How the data were processed

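RNA of Ptdsr-/- and wild-type fibroblasts was labelled indirectly with Cy3 or Cy5 and hybridised to 14 two-colour cDNA arrays, per the labels' protocols. What the authors deposited is a log2 ratio per probe and array. The base was read from the values, whose most frequent steps are log2 ratios of small whole numbers. The sources used here name no scanner, background correction or normalization. The labelling protocol describes organs and a control pool, and the channel labels, which name wild-type fibroblasts, were followed instead.

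Coded extremes (absolute value above 12, between 91 and 315 per array) were set to missing and each array was centred on its median (-0.334 to 0.244 as deposited). Probes measured on 10 or more arrays and 4 or more per dye orientation, 18503 in all, were fitted with a mean and a dye term in limma 3.58.1 under R 4.3.3 (lmFit and eBayes, Benjamini-Hochberg over all probes). The fit was tested on simulated data. Members, lists and ranges of replicate numbers were chosen with earlier results of these data known. Named genes were all members, the 3 genes of smallest p per list and the 5 probes nearest to H2-K1, B2m and Psmb8. Psmb10 and all other tested macrophage and leukocyte markers were named besides. Motifs were chosen with the promoters in view. Alternatives were no centring, scaled arrays, extremes kept, swapped arrays turned, other filters, a random block of number range and dye, robust and trended eBayes, gene averages and leaving out each array. For means only, they were also each dye orientation alone and the mean of the 3 ranges of replicate numbers. Names came from the platform annotation, where 14030 probes had 1 symbol, 5 several and 6320 none. Promoters came from RefSeq (GRCm38.p6), and all 8 genes matched. Precision is limited by the number of arrays and by the 2 cultures that the series design names, which could not be told apart.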

Additional observations from a re-analysis of the deposited data

Results flagged for a closer look

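Among the arrays of a dye orientation with a value (4 to 7), 1 array stood apart from the rest in 16 of 104 groups examined, where chance gives about 1 in 20. For the class I genes these were H2-K1 on replicate 13 at -0.46, Tapbp on replicate 4 at 3.14, Psmb9 on replicate 12 at 5.02, Psme1 on replicate 6 at 0.95 and Psme2 on replicate 11 at 2.64. The H2-K1 value stayed below 0. For other genes of the pathway they were H2-Q10 on replicate 10 at -0.58, Fcgrt on replicate 12 at -1.16, Psmb3 on replicate 12 at -1.77 and 1 Cd74 probe on replicate 4 at 2.99. Nrd1 stood at -5.89 on replicate 2 for 1 probe and at 1.93 on replicate 1 for the other. Nfyb stood at -0.60 and 4.41 on replicate 11 for its probes, Stat2 at -5.50 on replicate 2 and an Ifnar2 probe at -2.83 on replicate 2. The fibroblast marker Pdgfrb stood at -1.46 on replicate 4.

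Psmb9 lay below 0 on its 5 arrays with knockout RNA in Cy5 and above 0 on all 6 with it in Cy3, a difference of -2.81 log2 units (Cy5 minus Cy3). The dye term did not pass over all probes (limma, adjusted p = 0.461).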

How the results depend on the processing

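Of 90 values from alternatives other than leaving out arrays, 79 moved a mean by less than its spread between arrays or left a count of calls within 1.5 times. A wide spread hides moves by this measure. Psmb9 counted as unmoved at -1.10 with the Cy5 arrays alone and at 1.71 with the Cy3 arrays alone. Turning the arrays with the knockout in Cy3 once more moved the median of the class I means to -0.01, reversed H2-K1 to 0.18, and moved B2m to 0.01, Tap1 to -0.03 and Psmb8 to 0.09. It moved Psmb9 from 0.43 to -1.43, Tapbp from 0.22 to 0.41, Psme1 from -0.45 to -0.12 and Psme2 from -0.08 to -0.18, each by less than its spread between arrays. With it 0 class I probes were called lower and 1 had a dye term, because it exchanges the mean and the dye term. The count of class I probes called lower was 1 in the fit described, where 6 of all 18503 probes were called in either direction. It was 2 with extremes kept (7 of all 18868) and 3 with values required on all 14 arrays (11 of all 6134). With probes averaged per gene it was 2 (8 of all 9270 features). With robust and trended eBayes it was 0, as was the count over all 18503 probes, and the cause was not tested. H2-K1 was the called member wherever 1 was called, Psmb8 was added where 2 were, and B2m also where 3 were. Leaving out 1 array gave 1 to 2 calls, with 2 without replicate 1 (7 of all 17857 tested probes). It gave medians from -0.53 to -0.40 and H2-K1 means from -1.58 to -1.42. The ranges were -0.80 to -0.68 for B2m, -0.54 to -0.44 for Tap1, -0.78 to -0.68 for Psmb8, -0.57 to -0.30 for Psme1 and -0.29 to -0.04 for Psme2. Psmb9 (-0.03 to 0.70) and Tapbp (-0.14 to 0.48) had no settled sign. No paired analysis was possible because each array already holds both genotypes and there is 1 group of arrays. Deposited ratios carry no spot intensity, so signal over background could not be measured.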
